A study of Homo sapiens with 24 samples.

Results

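The ZIP zinc importers are the products of the SLC39 genes, and 10 of them were examined: SLC39A1, SLC39A3, SLC39A4, SLC39A6, SLC39A7, SLC39A8, SLC39A9, SLC39A10, SLC39A11 and SLC39A14. They were chosen by symbol from the 58051 genes of the count tables, which hold 14 SLC39 genes in all, and each symbol matched 1 Ensembl identifier. RNA of adherent cells was sequenced from 4 human cancer cell lines: SW620 (colorectal adenocarcinoma, COAD), BxPC-3 (pancreatic adenocarcinoma, PAAD), LNCaP (prostatic adenocarcinoma, PRAD) and HCC-70 (triple-negative breast cancer, TNBC). Each line had 3 control libraries and 3 libraries of cells exposed for 48 h to Ocoxin, a nutritional supplement, in medium with little serum. Each line received Ocoxin at its IC50 for viability, a 700-fold dilution in COAD, again 700-fold in TNBC, 500-fold in PAAD and 50-fold in PRAD. Since control libraries carry the same dilution in their labels, the letters C and O of the titles set the groups. Each cancer is therefore represented by 1 cell line, and nothing in the labels says whether the 3 libraries of a group came from separate cultures, so the p-values measure the spread between libraries, which may be technical.

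Zinc is a structural or catalytic part of many proteins, and cells keep its free level low. ZIP proteins bring zinc into the cytosol from outside the cell or out of organelles, whereas ZnT proteins, encoded by the SLC30 genes, carry it the other way. Metallothioneins bind the metal in the cytosol, and the transcription factor MTF1, which senses zinc, drives their genes and SLC30A1 through short DNA motifs called metal response elements. Zinc is also known to repress SLC39A10 through MTF1. Several ZIP proteins also carry iron, manganese or cadmium.

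The libraries held 25160757 to 34397801 counts in COAD, 31101178 to 34231106 in PAAD, 36863490 to 39009959 in TNBC and 9063968 to 9520969 in PRAD. The PRAD table was counted separately and without the paired-end option. A sequenced fragment mostly gave 2 counts in the first 3 lines and 1 in PRAD, so levels were not compared between PRAD and the other lines. LNCaP libraries expressed the prostate genes KLK3 and KLK2 at 213 to 414 CPM (counts scaled to a library of standard size, with TMM factors). In SW620 the intestinal gene VIL1 stood at 467 to 530 CPM, whereas the intestinal factor CDX1 had at most 3 counts in a library. BxPC-3 expressed the ductal keratin gene KRT7 at 964 to 1104 CPM as well as the basal keratin gene KRT5 at 2419 to 3322 CPM. Of the other pancreatic markers listed, KRT19 stood at 989 to 1426 CPM in BxPC-3, MUC1 at 75.7 to 93.4 and SOX9 at 16.8 to 25.2. MUC1 and SOX9 were higher in HCC-70, at 281 to 383 and 156 to 173 CPM, and KRT19 reached 1598 CPM there. SOX9 stood at 175 to 214 CPM in SW620. HCC-70 expressed KRT5 at 1406 to 1672 CPM, with the progesterone receptor gene PGR at 0 and the estrogen receptor gene ESR1 at 5.52 to 8.16 CPM. Of the other TNBC markers listed, KRT17 stood at 146 to 282 CPM in HCC-70 and 1669 to 2471 in BxPC-3. KRT14 stood at 71.5 to 106 CPM in HCC-70 and 14.2 to 25.3 in BxPC-3, and EGFR at 468 to 703 and 553 to 639. Of 8 stromal, endothelial and immune genes, PTPRC did not pass 6 counts in any library, but LUM reached 730 counts in COAD, CD3E 95 in PAAD, VWF 776 in PRAD and COL1A1 642 in TNBC. All 10 ZIP genes passed the filter on low counts in every line.

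SLC39A10 encodes ZIP10, a zinc importer of the plasma membrane, and it was the ZIP gene with the largest response. Ocoxin downregulated it in each cell line. Its level fell by 42.8% in COAD, fell by 64.0% in PAAD, fell by 37.7% in PRAD and fell by 42.8% in TNBC. In bulk RNA, fewer cells that express a gene and less RNA of it per cell cannot be told apart. The gene (ENSG00000196950) lies on the plus strand of chromosome 2 at 195575977 to 195737702 in hg38, with 6917 exonic bases. The study had already singled out SLC39A10 on these same libraries, so its fall is described here and not offered as independent evidence. The paper also reported SLC39A10 as lower in each line by RT-qPCR, on RNA extracted again from treated cells.

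In COAD, SLC39A10 stood at 87.7, 84.2 and 88.3 CPM in the control libraries and at 49.5, 46.9 and 52.3 CPM after Ocoxin. Every treated library lay below every control library. The mean went from 86.7 ± 2.21 to 49.6 ± 2.68 CPM (SD, n = 3 libraries each), a log2 fold change of -0.81 ± 0.058 (SE, adjusted p = 1.69e-08 in edgeR's quasi-likelihood test with Benjamini-Hochberg adjustment over 17659 genes). In PAAD, SLC39A10 stood at 32.5, 29.3 and 35.6 CPM in the controls and at 13.1, 11.8 and 10.1 CPM after Ocoxin. This was its deepest fall, and the highest treated library held less than the lowest control. The mean went from 32.4 ± 3.15 to 11.7 ± 1.49 CPM, a log2 fold change of -1.48 ± 0.10 (edgeR adjusted p = 3.81e-07).

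In TNBC, where SLC39A10 was low, the controls held 18.4, 18.5 and 20.7 CPM and the treated libraries 10.5, 11.3 and 11.1 CPM. The groups again did not overlap. The mean went from 19.2 ± 1.31 to 10.97 ± 0.43 CPM, with a log2 fold change of -0.81 ± 0.081 (edgeR adjusted p = 3.77e-05).

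In PRAD, SLC39A10 stood at 142, 140 and 187 CPM in the controls and at 86.6, 102 and 104 CPM after Ocoxin. The groups did not overlap, but control replicate 3 stood well above the other two controls. The mean went from 157 ± 26.6 to 97.6 ± 9.59 CPM, with a log2 fold change of -0.68 ± 0.12 (edgeR adjusted p = 0.0327). This call was the weakest of the 4. Without any 1 of the 6 PRAD libraries the log2 fold change lay between -0.77 and -0.54 and the adjusted p between 0.0523 and 0.121, so the call was lost each time, and with no filter on low counts it was lost as well (adjusted p = 0.150). With the replicate number as a block and all 6 libraries the adjusted p was 0.00609, and with DESeq2 it was 1.79e-06. The fits without 1 library did not use that block.

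**Figure D1:**
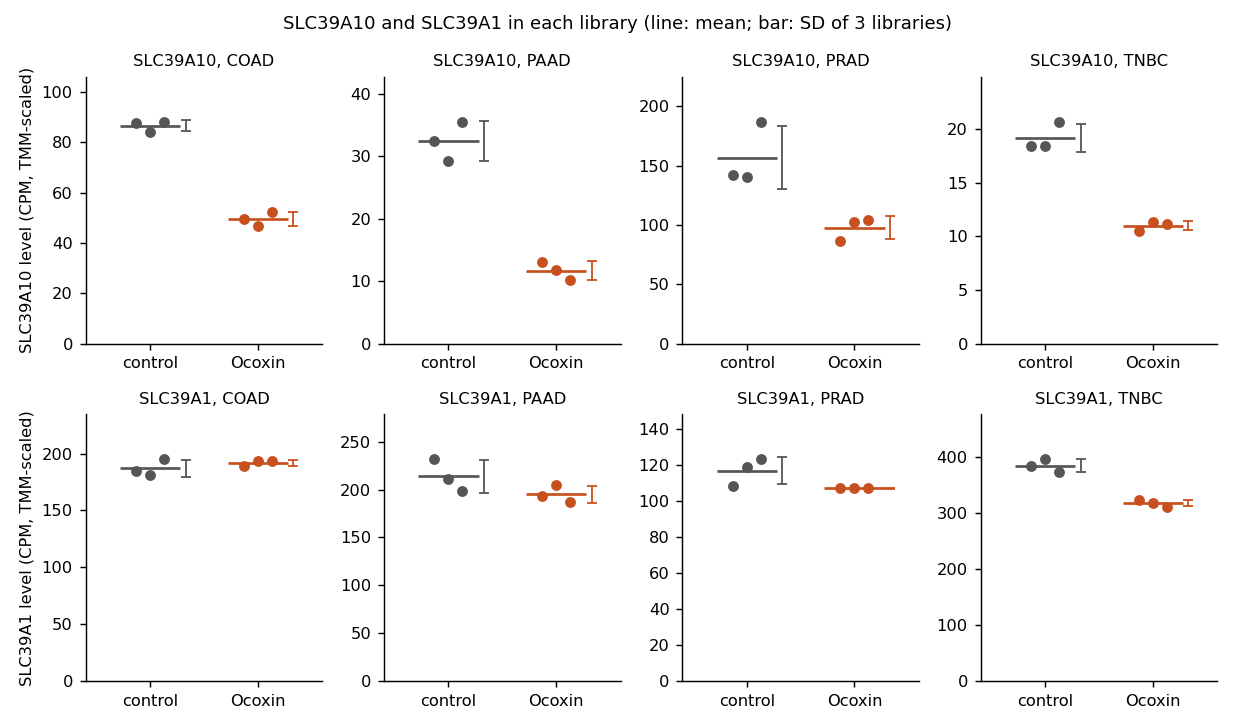
Level of SLC39A10 (upper row) and SLC39A1 (lower row) in CPM for each control and Ocoxin library of COAD, PAAD, PRAD and TNBC, with 1 point per library, the mean as a line and the SD of 3 libraries as a bar, each panel on its own axis from 0. SLC39A10 points of the groups do not overlap in any line, and SLC39A1 points separate clearly in TNBC, from 385 to 318 CPM on average.

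The promoter sequences of SLC39A10 are shown beside those of zinc genes that passed the edgeR test as upregulated in COAD, PAAD and TNBC. In PRAD they missed the threshold, with log2 fold changes of 0.55 for SLC30A1 (edgeR adjusted p = 0.0746) and 0.24 for MT2A (0.388). The core of the metal response element can thus be looked for in each promoter. RefSeq windows (GRCh38.p14) of 300 bases, 250 before and 50 from a transcription start onward, were available for 8 of the 10 ZIP genes. The core was searched on both strands as TGCACNC and TGCGCNC, which cannot match at the same place on 1 strand. For SLC39A10 RefSeq gives 2 starts, which lie inside the longer gene span of the count table. The 250 bases before the first start, chr2:195656708-195656957 on the plus strand, held no match:
SLC39A10: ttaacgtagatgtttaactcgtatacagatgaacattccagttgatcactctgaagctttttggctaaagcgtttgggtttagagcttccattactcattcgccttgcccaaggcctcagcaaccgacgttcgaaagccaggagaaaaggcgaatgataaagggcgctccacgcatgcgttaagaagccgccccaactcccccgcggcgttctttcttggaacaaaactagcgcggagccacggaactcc

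The window of the second SLC39A10 start held 1 match, 34 bases into the transcript counted from 1 at the start, shown in capitals within chr2:195657246-195657275, plus strand:
SLC39A10: agcggagaggagaTGCACACggcactcgag

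For comparison, the 250 bases before the start of MT2A, a metallothionein gene known to respond to zinc, held 7 matches, in capitals, at chr16:56608334-56608583 on the plus strand, and those of the zinc exporter gene SLC30A1 held 1, at chr1:211579162-211579411 on the minus strand:
MT2A: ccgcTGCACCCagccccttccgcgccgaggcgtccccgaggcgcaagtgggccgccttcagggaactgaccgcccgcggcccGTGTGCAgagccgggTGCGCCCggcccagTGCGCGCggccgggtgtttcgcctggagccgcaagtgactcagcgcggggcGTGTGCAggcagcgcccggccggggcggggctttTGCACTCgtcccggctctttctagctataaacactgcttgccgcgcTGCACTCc
SLC30A1: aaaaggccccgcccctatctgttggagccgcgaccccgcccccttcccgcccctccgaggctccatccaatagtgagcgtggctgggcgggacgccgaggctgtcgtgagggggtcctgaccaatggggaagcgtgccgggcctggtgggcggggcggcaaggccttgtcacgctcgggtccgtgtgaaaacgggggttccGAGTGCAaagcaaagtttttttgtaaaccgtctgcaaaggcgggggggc

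Over the full 300 bases, the MT2A window held 8 matches and the SLC30A1 window 2, against 0 and 1 for the windows of the SLC39A10 starts. Of the 35116 promoter windows of 300 bases, 29.6% held at least 1 match and 8.6% at least 2. Of the 13 windows of the ZIP genes, 5 held a match, and these belong to SLC39A1, SLC39A3, SLC39A6, SLC39A8 and SLC39A10. A match is a run of letters and was not tested as a binding site.

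SLC39A1 encodes ZIP1, a zinc importer found widely across tissues. In the main test, which had no replicate block, it was altered in TNBC alone at the threshold used. The gene (ENSG00000143570) lies on the minus strand of chromosome 1 at 153959099 to 153968184. In TNBC the controls held 385, 397 and 373 CPM and the treated libraries 323, 318 and 312 CPM. The groups did not overlap and were narrow. The mean fell from 385 ± 11.8 to 318 ± 5.68 CPM, with a log2 fold change of -0.28 ± 0.036 (edgeR adjusted p = 0.000233). This is a fall by 17.5%, far smaller than that of SLC39A10.

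In COAD, SLC39A1 held 185, 181 and 195 CPM in the controls and 189, 193 and 194 CPM after Ocoxin, so the groups overlapped (log2 fold change 0.04, 95% CI -0.06 to 0.14). In PAAD its log2 fold change was -0.13 (edgeR adjusted p = 0.236) and the groups overlapped. With the replicate number as a block the same SLC39A1 change in PAAD passed the test (adjusted p = 0.0169). In PRAD, SLC39A1 was at 109, 119 and 124 CPM in the controls and 108, 107 and 107 CPM after Ocoxin. The groups did not overlap, but the lowest control lay close to the treated libraries, and the log2 fold change was -0.13 (edgeR adjusted p = 0.223). The exons of SLC39A1 share 280 bases, 8.3% of their length, with CREB3L4 on the opposite strand, and the counting did not use strand, so reads of the pair cannot be told apart there.

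Over the 10 ZIP genes, 1 was downregulated in COAD, 1 in PAAD, 2 in TNBC and 1 in PRAD without the replicate block. The replicate numbers may pair samples in PAAD, PRAD and TNBC, and the counts with the block are given below. For COAD, PAAD, PRAD and TNBC, 2.55%, 8.33%, 2.98% and 21% of all genes tested were altered, and those downregulated made up 1.09%, 3.62%, 0.58% and 11.3%. These shares depended on single libraries, most of all in PRAD, where 3 to 398 genes passed without 1 of the 6 libraries against 508 with all. None of the 10 was upregulated in any line with edgeR without the replicate block (1.47%, 4.72%, 2.4% and 9.65% of all genes were), also 0 at an unadjusted p under 0.05 and 0 with DESeq2. The members below that unadjusted limit, all lower, numbered 1, 3, 3 and 4 in COAD, PAAD, PRAD and TNBC, near the shares of all genes below it (16%, 22.8%, 20.8% and 33.6%). The control and Ocoxin libraries did not overlap for 2, 3, 4 and 5 of the 10, against 20.6%, 27.5%, 27.6% and 38.1% of all genes tested. Of these, Ocoxin was lower for 1, 2, 4 and 5 (10.4%, 13.9%, 12.4% and 19.8% of all genes) and higher for 1, 1, 0 and 0 (10.2%, 13.6%, 15.2% and 18.3%). The median log2 fold change of the 10 was -0.01, -0.03, -0.03 and -0.07, and that of all genes -0.01, 0.00, 0.01 and 0.01.

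**Figure D2:**
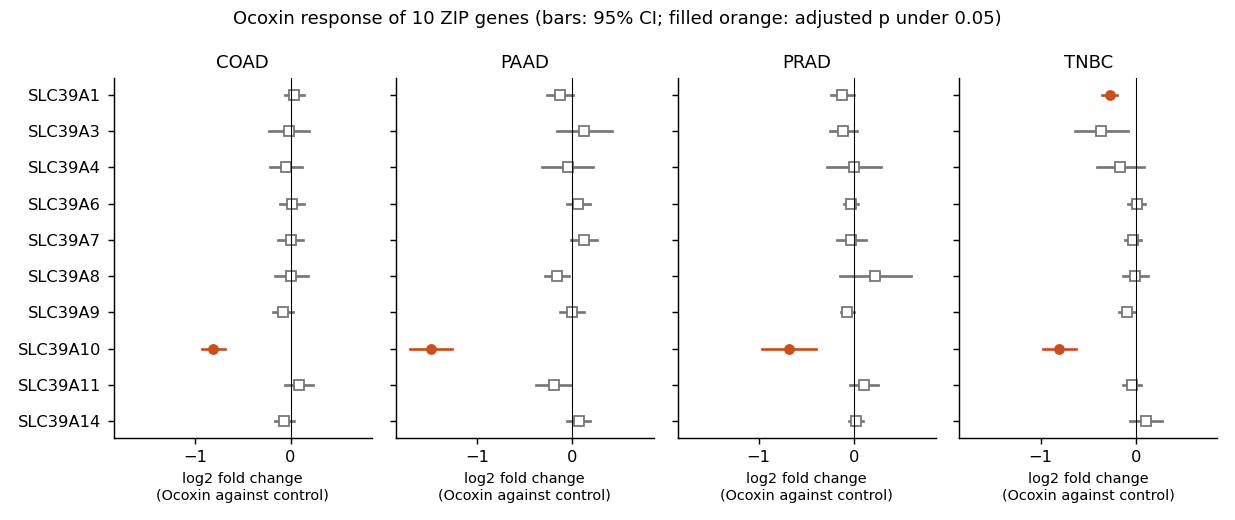
Log2 fold change of Ocoxin against control for the 10 ZIP genes in each cell line, with bars for the 95% CI from edgeR and filled orange circles for adjusted p under 0.05. SLC39A10 stands at -0.81, -1.48, -0.68 and -0.81, SLC39A1 at -0.28 in TNBC, and all other points are open squares between -0.36 and 0.22.

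The other importers known mainly from the plasma membrane are SLC39A3, SLC39A4, SLC39A6, SLC39A8 and SLC39A14. SLC39A3 (ZIP3) came closest to the threshold in TNBC, where its controls held 6.67, 8.61 and 6.79 CPM and its treated libraries 5.41, 6.13 and 5.61 CPM. The groups did not overlap, but the spread of this low gene was wide. Its log2 fold change was -0.36 ± 0.13 (edgeR adjusted p = 0.0579; 0.00734 with the replicate block). In PAAD the SLC39A3 value was 0.13 with a 95% CI of -0.17 to 0.42, in COAD -0.02 and in PRAD -0.12. SLC39A4 (ZIP4), the importer that takes up dietary zinc in the gut and whose loss causes acrodermatitis enteropathica, gave log2 fold changes of -0.05, -0.05, -0.01 and -0.17 in COAD, PAAD, PRAD and TNBC. None passed the test, and its libraries overlapped between groups in every line.

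SLC39A8 (ZIP8), which carries manganese as well as zinc, held 151, 140 and 155 CPM in PAAD controls and 129, 129 and 141 CPM after Ocoxin. The highest treated library thus reached just above the lowest control. Its log2 fold change in PAAD was -0.16 ± 0.060 (edgeR adjusted p = 0.115; 0.00207 with the replicate block). In PRAD the SLC39A8 controls held 94.8, 93.5 and 135 CPM and the treated libraries 112, 117 and 148 CPM, so that replicate 3 was the highest of its group in both. The log2 fold change was 0.22 ± 0.16 (edgeR adjusted p = 0.492), and with the replicate block it passed the test as an increase (adjusted p = 0.0321). For COAD and TNBC the SLC39A8 values were 0.01 and -0.01.

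SLC39A14 (ZIP14), which also imports iron and manganese, did not pass the test in any line, with log2 fold changes of -0.07, 0.06, 0.02 and 0.10 in COAD, PAAD, PRAD and TNBC. Its 95% CI in PRAD, -0.06 to 0.09, was among the narrowest. SLC39A6 (ZIP6), known as an estrogen-regulated gene of breast cells, gave 0.02, 0.06, -0.04 and 0.01. In PRAD its controls of 222, 222 and 217 CPM lay just above the treated libraries of 213, 216 and 216 CPM, a difference that did not pass the test (log2 fold change -0.04, edgeR adjusted p = 0.553).

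The ZIP genes of inner membranes are SLC39A7, SLC39A9 and SLC39A11. SLC39A7 (ZIP7) releases zinc from the endoplasmic reticulum, and its log2 fold changes were 0.00, 0.12, -0.03 and -0.03 in COAD, PAAD, PRAD and TNBC. In PAAD the SLC39A7 controls of 64.3, 65.2 and 57.7 CPM lay below the treated libraries of 69.0, 65.8 and 69.2 CPM without overlap (edgeR adjusted p = 0.273). The SLC39A7 exons share 244 bases with RXRB on the opposite strand.

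SLC39A9 (ZIP9), described at the Golgi apparatus and the plasma membrane, gave log2 fold changes of -0.07, 0.00, -0.07 and -0.09 for the 4 lines in that order. In TNBC its controls held 133, 131 and 129 CPM and its treated libraries 121, 121 and 127 CPM (edgeR adjusted p = 0.112; 0.0319 with the replicate block). The groups did not overlap in TNBC or in PRAD, where the adjusted p was 0.208. SLC39A9 shares 373 exonic bases with ERH on the opposite strand. SLC39A11 (ZIP11) had its largest value in PAAD, -0.20 ± 0.084 (edgeR adjusted p = 0.172; 0.0447 with the replicate block), with 23.5, 20.3 and 21.03 CPM in the controls and 19.6, 18.5 and 18.5 CPM after Ocoxin. In COAD the SLC39A11 treated libraries, 27.8, 28.3 and 26.7 CPM, lay above the controls of 26.1, 26.3 and 25.6 CPM (edgeR adjusted p = 0.593).

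With the replicate block, the number of ZIP genes altered was thus 4 in PAAD (SLC39A1, SLC39A8, SLC39A10 and SLC39A11, all lower), 2 in PRAD (SLC39A10 lower and SLC39A8 higher) and 4 in TNBC (SLC39A1, SLC39A3, SLC39A9 and SLC39A10, all lower). In COAD it remained 1, SLC39A10. The block raised the calls over all genes as well, to 10.9% in COAD, 23.1% in PAAD, 33.9% in TNBC and 8.5% in PRAD, so that the 4 in TNBC and the 1 in COAD were near the share of all genes. With a trend over gene length and GC content removed as well as the block, SLC39A6 was also called higher in PAAD (log2 fold change 0.11, edgeR adjusted p = 0.0429).

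Whether a response differed between the lines was tested with the interaction of cell line and treatment over all 24 libraries. The response differed for SLC39A10 (edgeR adjusted p = 0.00172) and SLC39A1 (0.0170) and for 10.9% of the 24631 genes in the fit. SLC39A10 fell further in PAAD than in each other line. The difference of the log2 fold changes, PAAD minus COAD, was -0.67 ± 0.14 (adjusted p = 0.00632), PRAD minus PAAD was 0.76 ± 0.14 (0.00157) and TNBC minus PAAD was 0.66 ± 0.15 (0.0085), calls made for 3.44%, 3.29% and 4.01% of all genes. Between COAD and TNBC, which received the same dilution, the SLC39A10 difference was -0.01 with a 95% CI of -0.30 to 0.27. For PRAD minus COAD the interval ran from -0.18 to 0.37 and for TNBC minus PRAD from -0.40 to 0.19, and 0.832% and 3.59% of all genes were called in these pairs. PAAD was the line treated at the 500-fold dilution, and dilution and cell line cannot be told apart there.

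The log2 fold change of SLC39A1 was lower in TNBC (-0.28) than in COAD (0.04) at that shared dilution. The difference in the fit of all 24 libraries was -0.33 ± 0.073 (edgeR adjusted p = 0.00421), a call made for 6.78% of all genes. The other 5 pairs of lines did not pass the test for SLC39A1. The call that the SLC39A1 response differed between the lines was lost without COAD control replicate 1, COAD control replicate 2 or TNBC control replicate 2. Of the other ZIP genes, SLC39A11 was nearest to the threshold (adjusted p = 0.0919). With the replicate block, 5 ZIP genes and 23.3% of all genes differed between the lines, the ZIP genes being SLC39A1, SLC39A3, SLC39A8, SLC39A10 and SLC39A11.

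**Figure D3:**
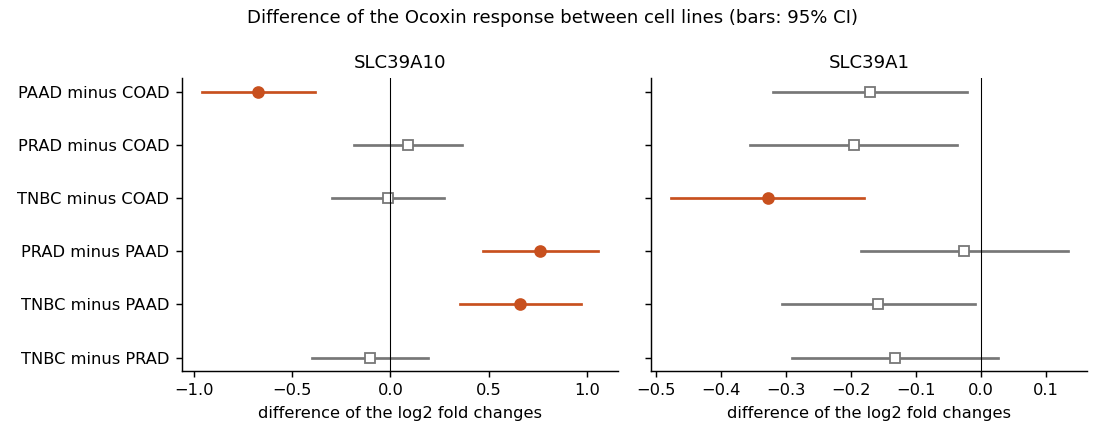
Difference of the Ocoxin log2 fold changes between each pair of cell lines for SLC39A10 (left) and SLC39A1 (right), with 95% CI and filled orange circles for adjusted p under 0.05. For SLC39A10 the 3 pairs that contain PAAD are filled, at -0.67, 0.76 and 0.66, and for SLC39A1 only TNBC minus COAD, at -0.33.

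The control level of the ZIP genes was compared per kb of exon (CPM per kb), which allows genes of different length to be set side by side. SLC39A1 was the highest of the 10 in COAD (50.1 ± 2.54 CPM per kb), PAAD (67.3 ± 5.87) and TNBC (115 ± 3.51). In COAD, SLC39A14 followed at 39.6 ± 1.82 CPM per kb, and SLC39A7, SLC39A9 and SLC39A6 came next at 16.4, 15.1 and 13.7. SLC39A7 and SLC39A9 overlapped between libraries, as did SLC39A9 and SLC39A6. In PAAD, SLC39A6 was second at 34.9 ± 0.27 CPM per kb, followed by SLC39A8 at 24.4 and SLC39A7 at 23.4, which overlapped. In TNBC, SLC39A6 at 35.5 ± 0.31 and SLC39A7 at 33.7 ± 0.020 CPM per kb stood next to SLC39A1. SLC39A3 was the lowest in COAD, PAAD and TNBC, at 2.36, 1.62 and 1.63 CPM per kb, and in TNBC its libraries overlapped those of SLC39A4.

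In PRAD the order was another one, with SLC39A6 first at 59.8 ± 0.77 CPM per kb, then SLC39A9 at 34.9 and SLC39A1 at 34.6, which overlapped. SLC39A4 was the lowest there, at 8.28 ± 1.30 CPM per kb, and overlapped SLC39A11 at 8.83. Over the 9 pairs of neighbours in each order, the libraries overlapped for 1 in TNBC, 2 in COAD, 3 in PAAD and 4 in PRAD. SLC39A10 ranked 6 in COAD (11.4 ± 0.39 CPM per kb), 7 in PAAD (4.99 ± 0.47), 8 in TNBC (2.80 ± 0.19) and 5 in PRAD (22.6 ± 3.82). Among COAD, PAAD and TNBC, the deepest fall of SLC39A10 was in the line with the middle control level.

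Control levels were tested between COAD, PAAD and TNBC, whose 9 control libraries share 1 count table. Of the 10 ZIP genes, 8 differed between PAAD and COAD, 10 between TNBC and COAD and 7 between TNBC and PAAD, where 78.6%, 82.8% and 77.1% of all 19930 genes did. A difference of over 2-fold was seen for 4, 7 and 3 ZIP genes, against 45.7%, 51.4% and 42.9% of all genes.

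SLC39A14 differed most, with 39.1, 38.1 and 41.6 CPM per kb in COAD, 18.1, 17.5 and 18.2 in PAAD and 3.44, 3.89 and 3.39 in TNBC. The 3 lines were fully apart. It was 11.1-fold lower in TNBC than in COAD (log2 difference -3.47 ± 0.066, edgeR adjusted p = 6.9e-22). SLC39A8 held 3.04, 2.71 and 3.11 CPM per kb in COAD, 25.0, 23.1 and 25.3 in PAAD and 10.0, 9.29 and 10.5 in TNBC. PAAD thus stood highest, 8.28-fold above COAD (log2 difference 3.05 ± 0.072, edgeR adjusted p = 3.79e-20).

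SLC39A11 was higher in TNBC, at 16.1 ± 0.41 CPM per kb, than in COAD (4.22 ± 0.017, 3.82-fold) and PAAD (4.13 ± 0.34, 3.90-fold), and COAD and PAAD did not differ (log2 difference -0.03, 95% CI -0.18 to 0.12). SLC39A10 was 4.06-fold higher in COAD than in TNBC and 2.27-fold higher in COAD than in PAAD. SLC39A6 was 2.55-fold higher in PAAD and 2.60-fold higher in TNBC than in COAD. SLC39A1 was 2.29-fold and SLC39A7 2.05-fold higher in TNBC than in COAD. SLC39A9 varied least of the genes that passed all tests against COAD, by 1.18-fold in PAAD and 1.23-fold in TNBC.

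**Figure D4:**
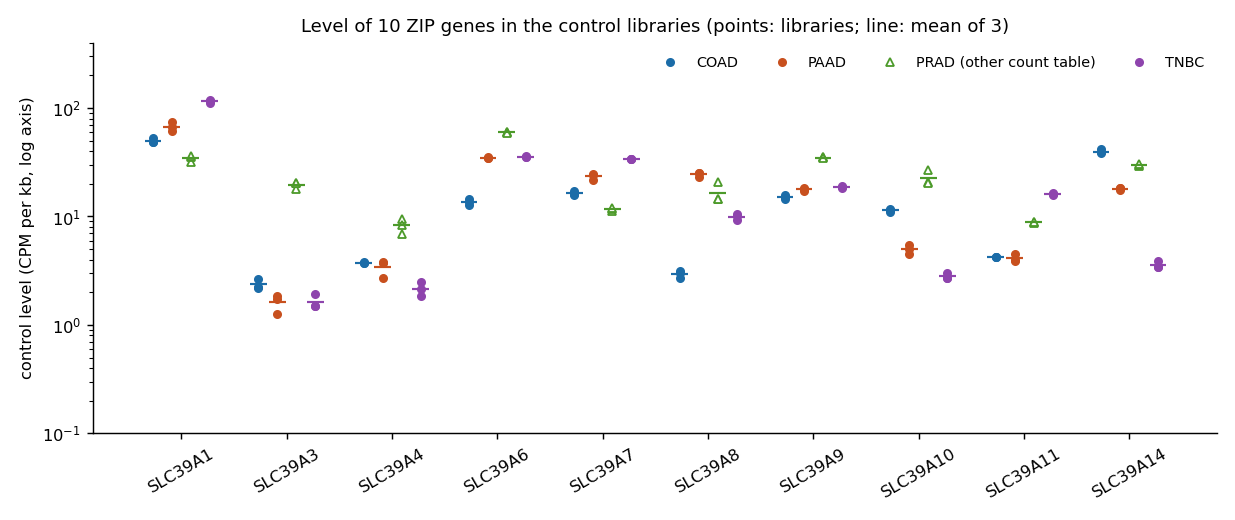
Control level of the 10 ZIP genes in CPM per kb of exon on a log axis, with 1 point per control library and the mean of 3 as a line, and open triangles for PRAD, which comes from another count table. SLC39A14 spans 3.57 in TNBC to 39.6 in COAD and SLC39A8 2.95 in COAD to 24.4 in PAAD.

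Summed over the 10 genes and scaled within each line, the ZIP transcripts stood at 176 ± 5.72 CPM per kb in COAD controls and 170 ± 3.44 after Ocoxin. The sums were 188 ± 5.69 and 180 ± 3.32 in PAAD, 247 ± 10.9 and 234 ± 4.21 in PRAD, and 236 ± 3.36 and 213 ± 1.16 in TNBC. SLC39A10 made up 7.13% of this sum in COAD controls and 4.23% after Ocoxin. Its share went from 2.50% to 0.937% in PAAD, from 9.15% to 6.03% in PRAD and from 1.17% to 0.746% in TNBC. In TNBC, SLC39A1 was the largest member of the sum.

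Of the 4 SLC39 genes outside these 10, SLC39A2 rose in TNBC (log2 fold change 0.36 ± 0.070, edgeR adjusted p = 0.00367), and no other was altered in any line with edgeR or DESeq2 (1 in COAD and 1 in TNBC at an unadjusted p under 0.05). Of the zinc exporter genes, SLC30A1, which encodes the exporter of the plasma membrane, was upregulated in COAD (0.41 ± 0.054, edgeR adjusted p = 0.000175), PAAD (0.36 ± 0.068, 0.00405) and TNBC (0.56 ± 0.051, 2.19e-05). In PRAD the SLC30A1 value was 0.55 ± 0.13 and missed the threshold (edgeR adjusted p = 0.0746). The paper reported SLC30A1 as higher in each line, PRAD included, by RNA sequencing and by RT-qPCR. So SLC30A1 and SLC39A10 moved in opposite directions in the 3 lines where both passed. The counts of exporter genes altered were 1 of 9 tested in COAD, 1 of 6 in PAAD, 0 of 7 in PRAD (2 at an unadjusted p under 0.05 and 1 with DESeq2) and 2 of 8 in TNBC, all of them higher. The second in TNBC was SLC30A2, an exporter of vesicles (1.34 ± 0.080, adjusted p = 5.63e-07). Of all genes, 1.47%, 4.72%, 2.4% and 9.65% were upregulated in COAD, PAAD, PRAD and TNBC.

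Metallothionein genes rose with edgeR for 6 of 8 tested in COAD, 6 of 7 in PAAD and 5 of 6 in TNBC. The medians were 1.26, 1.69 and 0.70 on the log2 scale. DESeq2 called 5 higher in COAD, 5 in PAAD and 5 in TNBC. In PRAD 0 of 4 passed with edgeR (1 at an unadjusted p under 0.05 and 1 with DESeq2), with a median of 0.37. MT1E, MT1F, MT1G, MT1M and MT2A were upregulated in COAD, PAAD and TNBC with edgeR. MT1M in COAD rested on 12 to 39 counts a library (edgeR adjusted p = 0.0277). MT1G gave values of 2.39 in COAD, 4.14 in PAAD and 1.87 in TNBC, and MT2A gave 0.79, 0.60 and 0.27. These genes are related in sequence, and how reads were shared out among them was not tested, so their counts are uncertain. MTF1 itself rose in PAAD (0.24 ± 0.064, edgeR adjusted p = 0.0310) and gave -0.15, 0.17 and 0.13 in COAD, PRAD and TNBC without passing.

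Of the 9 regulators and zinc sensors listed, MTF1 among them, 0 of 9 tested passed with edgeR in COAD (2 at an unadjusted p under 0.05 and 0 with DESeq2), 2 of 9 in PAAD (MTF1 and KLF4, higher), 1 of 8 in PRAD (ATF6, higher) and 2 of 9 in TNBC (ATF6 higher, STAT3 lower). DESeq2 called 3 in PAAD, 2 in TNBC and 0 in PRAD, so the PRAD call was lost with it. Of the 8 genes of iron and manganese transport, 1 passed in COAD (FTL, higher), 2 in PAAD (FTH1 higher, SLC40A1 lower), 0 in PRAD with edgeR (3 at an unadjusted p under 0.05 and 1 with DESeq2) and 2 in TNBC (TFRC and TMEM165, lower). Of all genes, 2.55%, 8.33%, 2.98% and 21% were altered in COAD, PAAD, PRAD and TNBC with edgeR. The counts of both lists in TNBC were thus near the share of all genes. FTL and FTH1 encode the subunits of the iron store ferritin, SLC40A1 the iron exporter ferroportin and TFRC the transferrin receptor.

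**Figure D5:**
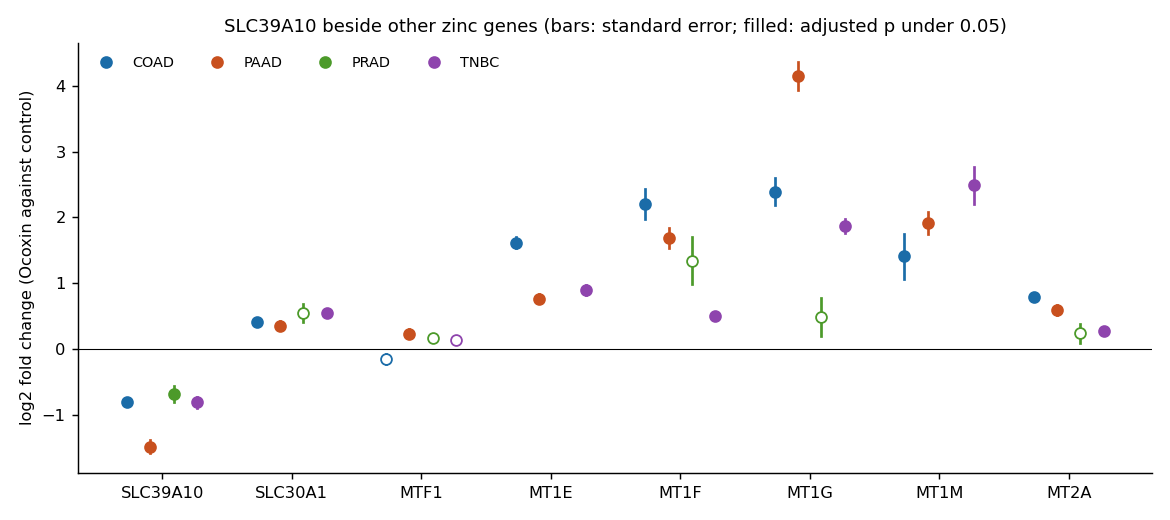
Log2 fold change of Ocoxin against control for SLC39A10, SLC30A1, MTF1 and 5 metallothionein genes in each cell line, with bars for the standard error and filled points for adjusted p under 0.05; genes not tested in PRAD have no PRAD point. SLC39A10 lies below 0 in each line, and SLC30A1 and the metallothionein genes lie above 0 wherever filled.

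Among the 13258 genes matched to a symbol and tested in each of the 4 lines, 5 were nearest to SLC39A10 in their log2 fold changes (Euclidean distance over the 4 lines). They were MARCHF6-DT (distance 0.66), ENSG00000231344, WDR5B-DT, DDN and MIR1915HG (0.94). MARCHF6-DT gave -0.45, -1.33, -0.23 and -0.51 in COAD, PAAD, PRAD and TNBC, and passed the test in PAAD and TNBC. None of the 5 passed in COAD or PRAD with edgeR.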

How the data were processed

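Per the paper's methods, reads were trimmed (fastp) and mapped to hg38 (STAR), and PCR duplicates were dropped (picard). The deposited values are raw counts per gene from featureCounts, version 2.0.3 in the table headers. They count primary alignments over exons, are not normalized and use no strand setting, although the kit keeps strand. For PRAD the authors ran the counting without the paired-end option, and for the other lines with it but without joining pairs. Gene names came from a table of identifiers (56948 of 58051 matched).

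Counts were analysed in R 4.3.3. Genes passing filterByExpr were scaled by TMM and tested with the robust quasi-likelihood F-test of edgeR 4.0.16 (two-sided), per line, over all 24 libraries for the interaction, and over 9 controls for the level. Altered means an adjusted p under 0.05 (Benjamini-Hochberg over all genes tested), with no minimum fold. Alternatives were DESeq2 1.42.0, its size factors in edgeR, other filters, all libraries in 1 fit, a replicate block, removal of a trend with length and GC of the gene, and each library left out. Halved counts were added after seeing the data. The functions were tested on simulated data.

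Members and lists were chosen with earlier results of these data known. All 10 members were named, together with list genes altered in at least 3 lines, SLC30A1, MTF1 and the 5 genes nearest to a member altered in at least 3 lines. SLC39A2, SLC30A2, KLF4, ATF6, STAT3, FTL, FTH1, SLC40A1, TFRC and TMEM165 were named after their values were seen. List genes were fitted without the block. Replicate numbers come from the titles. Deviations of same-numbered control and Ocoxin libraries from their group means were correlated over genes with a mean of at least 10 CPM. The values were 0.314 to 0.615 in PAAD, 0.176 to 0.605 in PRAD and 0.285 to 0.629 in TNBC, but 0.0813 for 1 pair in COAD. The numbers may thus pair samples in PAAD, PRAD and TNBC. The main tests and the fits without 1 library did not use this pairing. Over all genes tested, not every pair passed 0.1 in any line. Libraries with other numbers could correlate as well, up to 0.408 for replicate 2 in COAD against 0.0813 with its own number. For replicate 2 in TNBC the values were 0.346 against 0.320. Between 2 libraries of a group, chi-square per degree of freedom on raw counts was 1.83 to 4.99 in PRAD and 2.56 to 14.9 in the other lines. Sampling noise alone gives about 1 in PRAD and, with mostly 2 counts a fragment, about 2 in the others. No 2 libraries of a group agreed within this noise, but the lowest values of the other lines lay near it.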

Additional observations from a re-analysis of the deposited data

Results flagged for a closer look

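The Ocoxin response of SLC39A10 differed between the 4 cell lines by the interaction test (edgeR adjusted p = 0.00172), with changes of -1.48 in PAAD against -0.81 (COAD), -0.68 (PRAD) and -0.81 (TNBC) on the log2 scale, and the call held without any 1 library. The response of SLC39A1 differed as well (edgeR adjusted p = 0.0170), with 0.04 (COAD), -0.13 (PAAD), -0.13 (PRAD) and -0.28 (TNBC), and this call was lost without COAD control replicate 1, COAD control replicate 2 or TNBC control replicate 2. The dilution differed between the lines except for COAD and TNBC, and its part in the differences was not tested.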

How the results depend on the processing

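The downregulation of SLC39A10 in COAD, PAAD and TNBC and of SLC39A1 in TNBC kept direction and call under every alternative tried, each left-out library included. In PRAD the call for SLC39A10 was lost with no filter on low counts (0 ZIP genes altered) and without any 1 library (0 to 0 altered), and the cause was not tested. With the replicate block 4 ZIP genes were altered in PAAD (23.1% of all genes), 4 in TNBC (33.9%) and 2 in PRAD (8.5%). With it 5 responses differed between the lines (23.3%), and it changed no ZIP call in COAD. Removing a trend with length and GC of the gene gave 4 in TNBC, 3 in PAAD and 3 in PRAD (21.9%, 13.6% and 14.5% of all genes), and with the block as well 4, 5 and 6 (33.1%, 19.7% and 32.4%). Over all genes, leaving out 1 library moved the 451 calls in COAD to between 121 and 782 (control replicates 1, 2 and 3, Ocoxin replicate 2), the 1440 in PAAD to between 641 and 1715 (control replicate 2, Ocoxin replicates 1 and 2), the 508 in PRAD to between 3 and 398 (each library but Ocoxin replicate 3) and the 3644 in TNBC to between 2285 and 3864 (control replicate 2, Ocoxin replicates 1 and 2), where leaving out each library named moved the count by over 1.5 times. With 1 library left out, 1 to 3 ZIP responses differed between the lines. Over all genes 2099 to 3067 responses then differed, against 2689 with every library. The counts of ZIP genes with different control levels stayed within 1.5 times their value under every alternative.

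Values near 0 changed sign, 19 with no library left out, none of them called. Log2 fold changes became -0.0022 (SLC39A7 in COAD) and -0.0042 (SLC39A14 in PRAD) with no filter. With the trend removed they became -0.0187 for SLC39A1, -0.0053 for SLC39A6 and -0.0532 for SLC39A7 in COAD and -0.0609 for SLC39A14 in PRAD, and with the block as well -0.0178, -0.0043, -0.0523 and -0.0607. With all 24 libraries in 1 fit they were -0.0116 for SLC39A14 in PRAD and -0.0042 for SLC39A6 in TNBC. At least 10 counts in every library gave 0.0060 for the SLC39A1 response, PRAD minus PAAD, and control level differences of TNBC minus PAAD of -0.0125 for SLC39A3 and -0.0028 for SLC39A6. DESeq2 and its size factors in edgeR gave 0.0062 and 0.0041 for the control level of SLC39A11, PAAD minus COAD, and -0.0010 and -0.0016 for that of SLC39A3, TNBC minus PAAD. Without 1 library, uncalled log2 fold changes that changed sign ranged in COAD from -0.0656 to 0.0726 for SLC39A3, -0.12 to 0.015 for SLC39A4, -0.019 to 0.0608 for SLC39A6, -0.0245 to 0.0366 for SLC39A7, -0.0578 to 0.0797 for SLC39A8; in PAAD from -0.0263 to 0.23 for SLC39A3, -0.19 to 0.0569 for SLC39A4, -0.0318 to 0.0346 for SLC39A9; in PRAD from -0.12 to 0.0919 for SLC39A4; and in TNBC from -0.0279 to 0.0247 for SLC39A6, -0.0698 to 0.0317 for SLC39A8. Differences of response ranged from -0.0894 to 0.0288 for SLC39A1, PRAD minus PAAD, and -0.0502 to 0.0418 for SLC39A10, TNBC minus COAD, and control level differences from -0.10 to 0.0163 for SLC39A11, PAAD minus COAD, -0.20 to 0.0257 for SLC39A4, PAAD minus COAD, -0.14 to 0.13 for SLC39A3, TNBC minus PAAD.

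With 3 libraries a group, low genes such as SLC39A3 were measured with wide intervals, and a change that did not pass the test is not shown to be absent.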
